A study of Mus musculus with 20 samples.

Results

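Respiratory complex I is the enzyme that takes electrons from NADH, passes them to ubiquinone and pumps protons across the inner mitochondrial membrane. The genes described here were chosen by the names of its nuclear subunits. Taken was every probe whose accession belongs, in RefSeq, to Ndufa, Ndufb, Ndufc, Ndufs or Ndufv with a number, or to Ndufab1. The assembly factors (Ndufaf genes) were kept apart. This rule found 36 genes, on 47 probes, among the 17178 named genes of the array. All 47 probes passed the filter on dim probes, and each gene is described by its brightest probe. Ndufa4l2, Ndufa11, Ndufb1 and 6 paralogues or pseudogenes that match the naming rule were not analysed here.

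The cells were fibroblasts from mouse embryos (MEFs), kept for 24 h with serum of female C3H/HeN mice. The 4 groups were 8 Gy serum of the 20-day set (donors L/MDR-irradiated with 8 Gy), control serum of the 20-day set (donors not irradiated, 0 Gy), 4 Gy serum of the 10-day set (donors L/MDR-irradiated with 4 Gy) and control serum of the 10-day set (donors not irradiated, 0 Gy). Each group had 5 one-colour Agilent arrays. The labels do not expand L/MDR, and they do not say whether days count exposure or time to serum collection, or whether replicates came from separate cultures or donors. P-values therefore set differences between groups only against the spread of arrays within groups, and that spread may be technical. Dose and set change together, so an effect of the dose and one of the days cannot be told apart.

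The signal is the log2 processed intensity minus the array's 75th percentile of it, and changes are differences of that signal. Each change compares the signal of 1 probe between arrays. Signals of different probes were set together only to pick the brightest probe, to group genes by brightness and to summarise lists. A difference in signal between probes is not read as a difference in RNA amount. Between 57.0% and 67.2% of probes were well above background on an array, and the 36 subunit probes were so on every array that measured them. All 14 fibroblast markers were well above background on every array. The summed linear level of 15 macrophage markers was 42.4 to 51.9 with 8 Gy serum, 40.9 to 59.0 in 20-day controls, 2.41 to 2.88 with 4 Gy serum and 1.78 to 2.52 in 10-day controls. On every array of the 20-day set all 15 were well above background, and 14 were on every array of the 10-day set. Their level thus differed between the sets far more than between sera within a set, and in bulk RNA fewer cells of a type and less RNA per cell cannot be told apart.

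Complex I has a matrix arm and a membrane arm. In the matrix arm the N module holds the NADH site and the Q module hands electrons to ubiquinone. The membrane arm holds the proton pumps, whose core subunits are encoded in mitochondrial DNA and are not members here. Of the nuclear subunits 7 are core, carrying the flavin or iron-sulphur clusters or shaping the quinone pocket, and the others are accessory. In fibroblasts grown in glucose the enzyme regenerates NAD+ as well as driving ATP synthesis.

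The promoters of 4 members that were lower with 8 Gy serum are shown. Ndufb5 and Ndufa6 had the lowest changes of all members. Ndufs6 and Ndufb8 had the lowest changes among members whose window holds the YY1 motif, which several members share. Both were lower under each of 14 alternative ways of processing. Each window runs from 250 bases before to 50 after the start, 5′ to 3′ on the gene's strand (RefSeq, GRCm38.p6). The start used for the Ndufb5 window lies a few bases inside the gene as annotated. The windows are chr3:32736813-32737112 (+) for Ndufb5, chr15:82354242-82354541 (−) for Ndufa6, chr13:73328433-73328732 (−) for Ndufs6 and chr19:44555393-44555692 (−) for Ndufb8. Capitals mark the NRF1 core GCATGCGC in Ndufa6 and the YY1 motif AAGATGGC in Ndufs6 and Ndufb8.
Ndufb5: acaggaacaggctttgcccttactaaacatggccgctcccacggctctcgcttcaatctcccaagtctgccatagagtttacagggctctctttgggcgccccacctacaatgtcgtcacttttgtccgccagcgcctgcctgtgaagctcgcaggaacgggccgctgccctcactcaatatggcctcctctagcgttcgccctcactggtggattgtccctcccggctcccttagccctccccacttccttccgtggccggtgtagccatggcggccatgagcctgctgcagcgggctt
Ndufa6: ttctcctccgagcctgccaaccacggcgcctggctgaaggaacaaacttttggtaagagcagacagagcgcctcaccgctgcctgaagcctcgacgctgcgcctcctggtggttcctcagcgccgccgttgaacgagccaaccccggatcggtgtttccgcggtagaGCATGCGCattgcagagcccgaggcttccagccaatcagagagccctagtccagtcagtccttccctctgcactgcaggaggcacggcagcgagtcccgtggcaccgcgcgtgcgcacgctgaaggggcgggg
Ndufs6: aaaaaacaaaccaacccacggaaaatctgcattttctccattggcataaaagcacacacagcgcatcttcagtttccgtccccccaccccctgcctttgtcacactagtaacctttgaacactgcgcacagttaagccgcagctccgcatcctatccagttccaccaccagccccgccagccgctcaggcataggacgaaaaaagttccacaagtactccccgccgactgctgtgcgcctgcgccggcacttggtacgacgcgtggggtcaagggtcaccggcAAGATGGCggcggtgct
Ndufb8: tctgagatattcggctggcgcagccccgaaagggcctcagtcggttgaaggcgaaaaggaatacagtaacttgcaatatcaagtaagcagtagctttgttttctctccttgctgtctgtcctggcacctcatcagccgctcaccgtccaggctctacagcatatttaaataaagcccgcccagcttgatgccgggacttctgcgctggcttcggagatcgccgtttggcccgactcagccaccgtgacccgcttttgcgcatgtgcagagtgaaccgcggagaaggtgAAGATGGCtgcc

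Windows were found for 32 of the 36 members. They were searched on both strands for motifs of 3 factors known for nuclear respiratory genes. AAGATGGC, the YY1 motif, lay in 7 members (21.9%), namely Ndufa3, Ndufa9, Ndufb8, Ndufc1, Ndufs4, Ndufs6 and Ndufs7, against 3.19% of 27025 promoters of all genes. All 7 were among the 23 members with a window that fell with 8 Gy serum, and 0 among the other 9. Most windows belonged to members that fell, and the motifs were chosen with earlier results known, so this split is no test. A part of YY1 in the fall was not tested. The 27025 promoters were not limited to genes tested or bright here. In Ndufs6 the YY1 motif stands at bases 284 to 291 and in Ndufb8 at bases 289 to 296, both just after the start. CCGGAAG, the GABP motif, lay in 4 members (12.5%, against 9.93% of all), 2 of them among the 23 that fell. The full palindromic NRF1 motif, GC followed by GCATGCGC, was in 0 of 32 (1.07% of all), so the overlapping core GCATGCGC alone was also searched: it lay in Ndufa6, at bases 168 to 175, and in Ndufa8 (6.25%, against 3.05% of all). The Ndufb5 window held none of these motifs. These are matches of letters, not binding sites.

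The 20-day comparison asked how cells given serum of mice irradiated with 8 Gy differed from those given control serum. Most complex I genes were lower. Of 36 members 25 fell and 1 rose past an adjusted p of 0.05 (limma, Benjamini-Hochberg over 20231 genes), while 28.8% of all genes were called lower and 17.3% higher. The median change was −0.38 over the members, a 1.30-fold lower signal, against −0.09 over all genes. In fold terms, 5 members were at least 1.5-fold lower, a count for which no share of all genes was computed. Per array the members' median signal was 4.73 ± 0.11 with 8 Gy serum and 5.17 ± 0.07 with control serum (SD, n = 5 each).

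**Figure D1:**
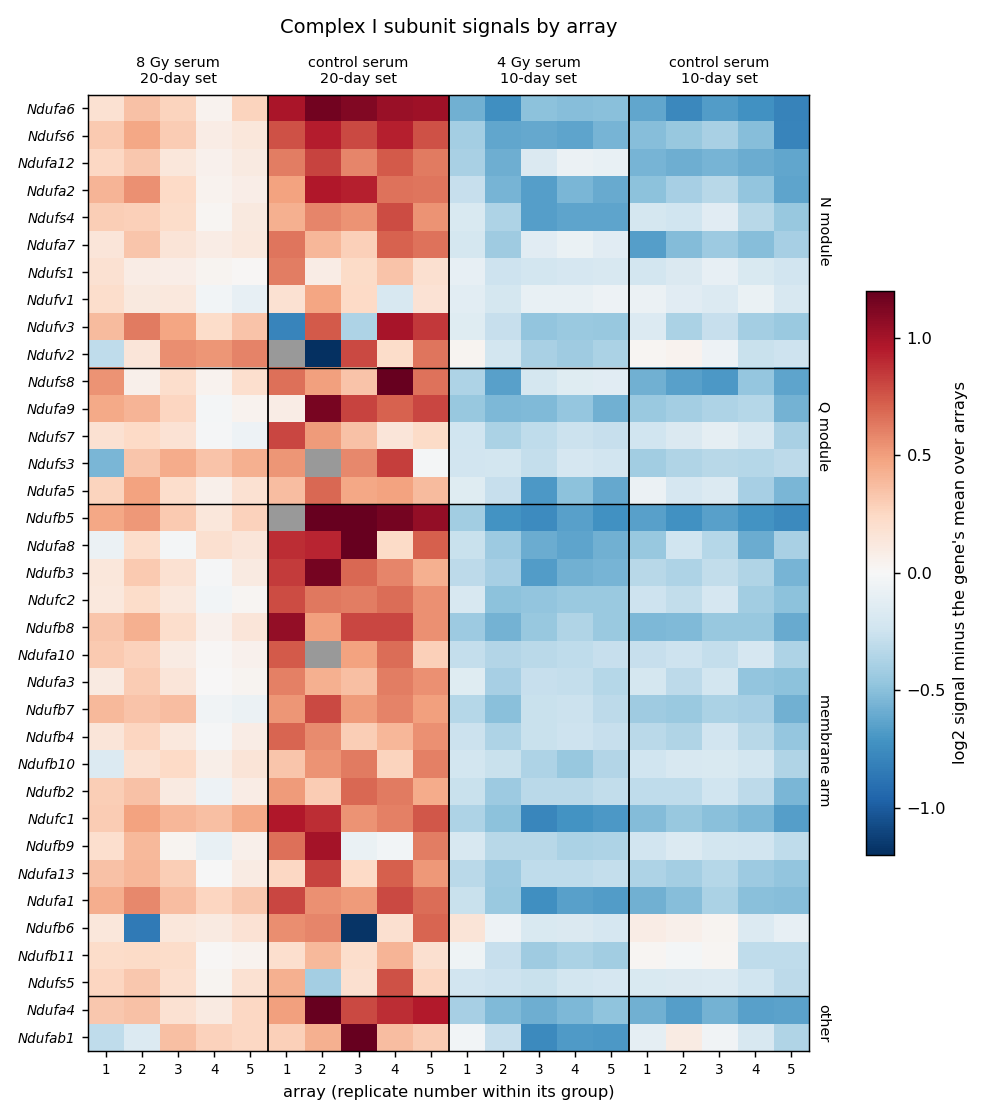
Signal of 35 of the 36 subunits on each of the 20 arrays, as log2 difference from that gene's mean over arrays; rows are ordered by module and by their change with 8 Gy serum, grey cells are spots left out, and colours are capped at the ends of the scale. Most rows are darkest red in the 20-day controls, paler with 8 Gy serum and blue in both 10-day groups, and single pale or blue cells stand out in Ndufb6, Ndufv2 and Ndufv3.

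Ndufb5, an accessory subunit of the membrane arm (chromosome 3, 32737057 to 32751559), showed the lowest change. Its signal was 2.51, 2.57, 2.37, 2.19 and 2.32 with 8 Gy serum, and 3.65, 3.32, 3.19 and 3.11 on the 4 control arrays that measured it. The groups did not overlap, and the change was −0.93 ± 0.11 (SE), 1.90-fold lower (limma adjusted p = 2.67e-06). With 4 Gy serum the signal was 1.29 to 1.63 and in 10-day controls 1.29 to 1.40.

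Ndufa6, a matrix-arm subunit that anchors an acyl carrier protein (chromosome 15, 82350139 to 82354291), had 3.49, 3.65, 3.56, 3.35 and 3.57 with 8 Gy serum, and 4.28, 4.45, 4.41, 4.34 and 4.32 with control serum. Every control array was above every 8 Gy array, and the spread within each group was small beside the change of −0.84 ± 0.07 (1.79-fold lower, limma adjusted p = 7.13e-08).

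Ndufa8 and Ndufa4 followed. Ndufa8 (chromosome 2, 36036324 to 36049338), a disulphide-rich subunit on the intermembrane-space side, had 4.63, 4.92, 4.68, 4.89 and 4.85 with 8 Gy serum, and 5.59, 5.62, 6.01, 4.94 and 5.42 with control serum. The lowest control array lay just above the highest 8 Gy array, and its other probe had a change of −0.32 that was not past the threshold (adjusted p = 0.33). Ndufa4 (chromosome 6, 11900372 to 11907450), named for complex I but found in cytochrome c oxidase, had 5.79, 5.81, 5.65, 5.57 and 5.71 with 8 Gy serum, and 5.96, 6.78, 6.26, 6.35 and 6.41 with control serum. Its change of −0.65 ± 0.10 was 1.57-fold (limma adjusted p = 7.34e-05), again with no overlap.

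The N module had 7 of 10 members lower (median −0.38). Of all genes 28.8% were called lower, and of genes as bright as the 36 members 48.9%. Ndufs6, Ndufa12, Ndufs4 and Ndufa2 are accessory subunits on or beside the NADH-oxidising tip, and Ndufs6 and Ndufs4 are needed for its stable attachment. Ndufs6 (chromosome 13, 73319876 to 73328482) had 4.68, 4.82, 4.66, 4.45 and 4.49 with 8 Gy serum, and 5.13, 5.31, 5.15, 5.29 and 5.13 with control serum. The groups did not overlap (change −0.58 ± 0.09), and both other probes of Ndufs6 fell by 0.70. Ndufa12 fell by 0.50, with other probes at −0.80 and −0.41, and the last of these was not past the threshold. Ndufa7 fell by 0.37 and its other probe by 0.58.

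Of the 3 core N-module subunits 1 was called. Ndufs1, the largest iron-sulphur subunit, fell by 0.21 ± 0.08 (limma adjusted p = 0.0341), with 4.36, 4.26, 4.25, 4.21 and 4.18 with 8 Gy serum and 4.79, 4.26, 4.40, 4.52 and 4.36 with control serum. These ranges overlapped, and the call was lost without any of 6 single arrays (8 Gy replicates 2, 3, 4 and 5, control replicates 1 and 4; adjusted p up to 0.0762). Ndufv1, which binds FMN and NADH, had a change of −0.11 ± 0.09 (limma adjusted p = 0.349), and passed only without control replicate 4 (adjusted p = 0.0393). Ndufv2, its iron-sulphur partner, had 2.70, 3.16, 3.56, 3.54 and 3.60 with 8 Gy serum, and 1.74, 3.80, 3.23 and 3.65 on the 4 measured control arrays. One low array in each group spread the values, and the change of 0.21 ± 0.30 did not pass (limma adjusted p = 0.599).

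Ndufv3, a small N-module subunit, gave different answers by probe. Its brightest probe had 3.48, 3.72, 3.58, 3.32 and 3.44 with 8 Gy serum, and 2.31, 3.83, 2.73, 4.09 and 3.95 with control serum, so that control arrays lay on both sides of the 8 Gy arrays. That change (0.13 ± 0.25) was not past the threshold, while both dimmer probes rose, by 0.31 and 0.52 (limma adjusted p = 0.0126 and 1.10e-04 over all probes that passed). No member had probes called in opposite directions.

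In the Q module 3 of 6 members fell (median −0.29). That is near the 48.9% called lower among genes as bright as the 36 members, and 28.8% of all genes were lower. Ndufs8 (change −0.49 ± 0.15) and Ndufs7 (−0.30 ± 0.10), core subunits with iron-sulphur clusters, and Ndufa9 (−0.48 ± 0.14), an accessory subunit near the quinone site, were lower. The Ndufs7 call was lost without 8 Gy replicate 4 or 5 or control replicate 1 (adjusted p up to 0.0598). Ndufs3, a core subunit, had 3.31, 4.20, 4.31, 4.21 and 4.28 with 8 Gy serum and 4.39, 4.43, 4.69 and 3.84 on the 4 measured control arrays. These overlapped (change −0.28 ± 0.17, limma adjusted p = 0.209), though without control replicate 5 the adjusted p was 0.0377.

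Of the 18 membrane-arm members 14 fell (median −0.38), against 28.8% of all genes and 48.9% of genes as bright as the 36 members. Besides Ndufb5 and Ndufa8, the lowest were Ndufb3 (−0.59 ± 0.11), Ndufc2 (−0.56 ± 0.08) and Ndufb8 (−0.51 ± 0.10), accessory subunits around the proton-pumping core. Ndufb8 had 5.43, 5.52, 5.31, 5.15 and 5.24 with 8 Gy serum, and 6.16, 5.59, 5.90, 5.91 and 5.65 with control serum. Its groups did not overlap. Ndufb6, Ndufb9, Ndufb11 and Ndufs5 did not pass the threshold, with changes of −0.23, −0.32, −0.14 and −0.05. Ndufb6 had 1 far lower array in each group, 3.43 with 8 Gy serum and 3.10 with control serum, and without that control array (replicate 3) its adjusted p was 0.0120. Ndufb9 likewise passed without control replicate 3 or 4. Ndufa1 lost its call without 8 Gy replicate 4, and Ndufa13 without 8 Gy replicate 4 or 5 or control replicate 2, 4 or 5 (adjusted p up to 0.104).

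Ndufab1, the mitochondrial acyl carrier protein, which serves complex I and lipoate synthesis, had 3.51, 3.65, 4.17, 4.09 and 4.06 with 8 Gy serum, and 4.10, 4.24, 5.05, 4.19 and 4.12 with control serum. Its change of −0.44 ± 0.19 missed the threshold (limma adjusted p = 0.0570) and its other probe was at −0.01. The call was gained without 8 Gy replicate 3 or control replicate 1 or 5 (adjusted p down to 0.0428). With the replicate number as a block within each set Ndufab1, Ndufa5 (−0.23) and Ndufb9 (−0.32) passed the threshold, and Ndufa1 (−0.27) and Ndufa13 (−0.28) no longer did.

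**Figure D2:**
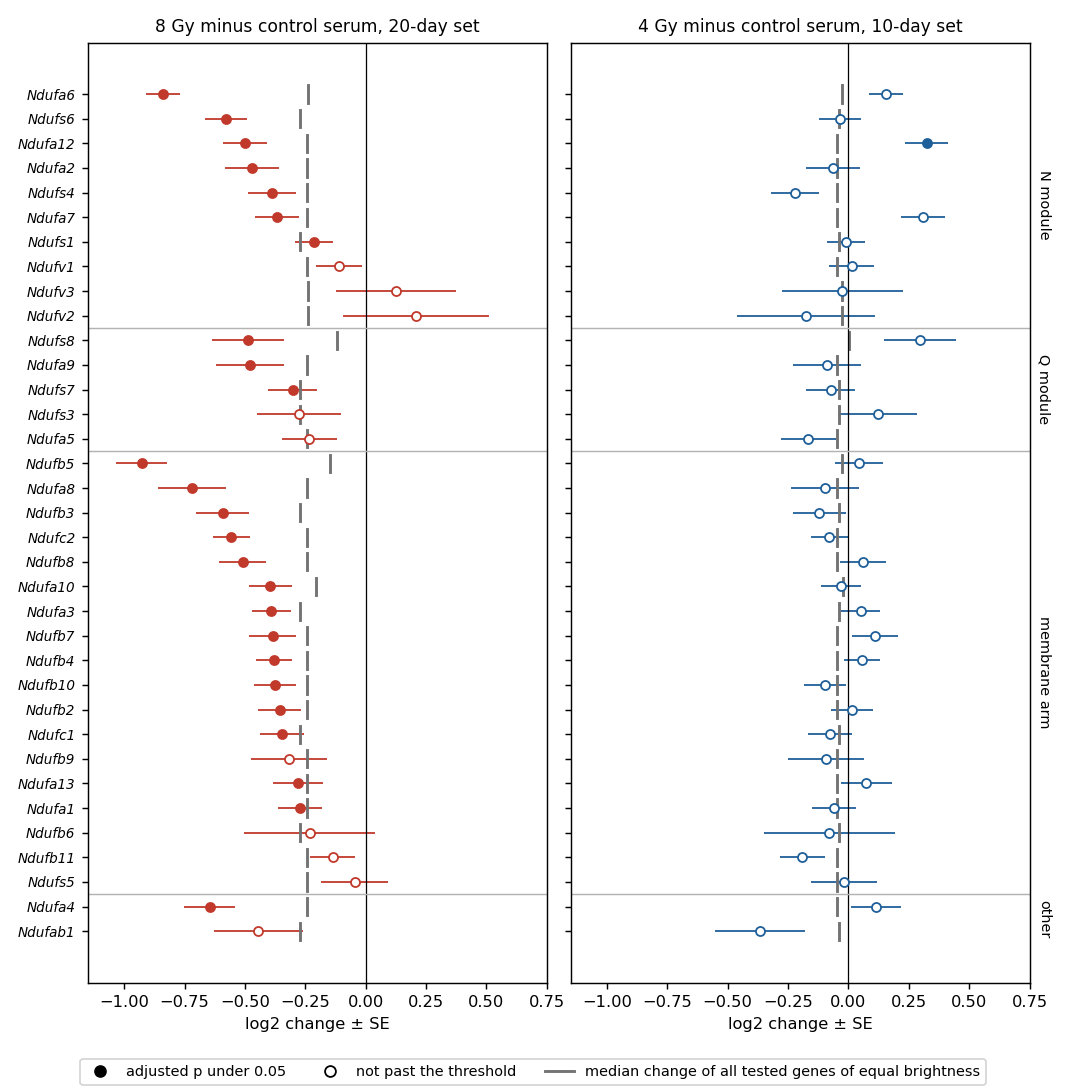
Log2 change with its standard error for the same 35 subunits with 8 Gy serum (left, red) and 4 Gy serum (right, blue) against the control serum of the same set; filled points passed an adjusted p of 0.05, and grey ticks give the median change of all tested genes of the same brightness. On the left 25 filled points lie below 0, and on the right Ndufa12 alone is filled.

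Seen array by array, 15 members had every 8 Gy array below every measured control array, and 0 had the reverse, where 19% and 9.11% of all genes did. Beside those given above these were Ndufa3, Ndufb4, Ndufb7, Ndufb10, Ndufc1, Ndufc2, Ndufb3, Ndufs4 and Ndufa12.

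Complex I genes are bright on this array, and bright genes in general were lower with 8 Gy serum. Tested genes were put into 20 bins of equal size (1011 or 1012 genes) by mean signal: 20 of the 36 members fell in the brightest bin and 33 in the 3 brightest. The median change of the members' bins was −0.24, and the members' own changes differed from their bin by a median of −0.13, with 27 members below it and 9 above. That excess was −0.12 with 10 bins and −0.11 with 50. Of the members 69.4% were called lower, against 48.9% of the genes in their bins. Members furthest below their bin were Ndufb5 (−0.78), Ndufa6 (−0.60) and Ndufa8 (−0.48), while Ndufv2 (0.45) and Ndufv3 (0.36) lay above theirs.

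On single arrays this excess, with each gene centred on its mean over all arrays, was 0.05 to 0.22 with 8 Gy serum and 0.23 to 0.34 in 20-day controls, with no overlap. Without that centring, where a gene's place within its bin also counts, the values were 0.12 to 0.29 (mean 0.23) with 8 Gy serum and 0.14 to 0.32 (mean 0.19) in 20-day controls. These groups overlapped, and the order of their means was the opposite. Quantile and cyclic loess normalisation, which remove shifts shared by bright genes, left 11 and 12 members lower, with medians of −0.12 and −0.11. They called 24.7% and 23.8% of all genes lower. Under each of 14 alternatives to the processing, 9 of the 26 calls held: those of Ndufb5, Ndufa6, Ndufa8, Ndufa4, Ndufb3, Ndufs6, Ndufc2, Ndufb8 and Ndufa12, all lower.

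**Figure D3:**
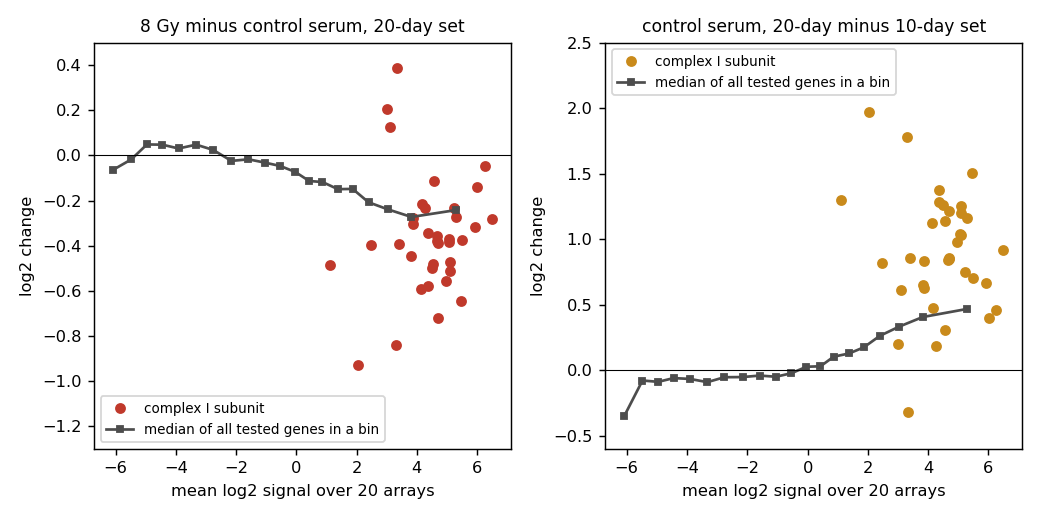
Log2 change against mean signal for the 36 subunits (points) and the median of all tested genes in each of 20 brightness bins (line, drawn at the bin's median signal), with 8 Gy serum against control serum on the left and for the control sera, 20-day against 10-day set, on the right. The line bends to −0.24 in the brightest bin on the left and to 0.47 on the right, and 27 subunits on the left and 6 on the right lie below their bin.

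The 10-day comparison asked the same of serum from mice irradiated with 4 Gy. Of 36 members 1 was called higher and 0 lower, against 4.5% and 1.47% of all genes, and the median change was −0.03 (all genes 0.00). The median signal of the members was 4.19 ± 0.14 with 4 Gy serum and 4.25 ± 0.09 with control serum (SD, n = 5 each), and 18 members lay below and 18 above their bin.

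Ndufa12 (chromosome 10, 94199035 to 94221440), an accessory subunit related to the assembly factor Ndufaf2, was the member called. It had 4.10, 3.90, 4.32, 4.41 and 4.40 with 4 Gy serum, and 3.93, 3.90, 3.93, 3.90 and 3.86 with control serum. The 4 Gy arrays of slide 3 (replicates 3 to 5) were the high ones, and the group's second array lay among the controls. The change was 0.32 ± 0.09 (limma adjusted p = 0.0396). The call was lost without 8 of the 10 arrays taken singly: any control array, or 4 Gy replicate 3, 4 or 5 (adjusted p up to 0.139). It was also lost in 9 of 14 alternatives to the processing, among them the fit to the 10 arrays of the set alone and the authors' table (adjusted p up to 0.638).

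The next highest changes were those of Ndufa7 (0.31 ± 0.09, limma adjusted p = 0.0507), Ndufs8 (0.30 ± 0.15), Ndufa6 (0.15 ± 0.07) and Ndufs3 (0.12 ± 0.16). Ndufa7 passed without 4 Gy replicate 2 or control replicate 5, while its other probe had a change of −0.08. Ndufs3 had 3.58 to 3.66 with 4 Gy serum and 3.44 to 3.55 with control serum, the only member whose groups did not overlap, where 4.28% of all genes were so separated upward and 3.61% downward. Among the lowest were Ndufab1 (−0.37 ± 0.19), Ndufs4 (−0.22 ± 0.10), Ndufb11 (−0.19 ± 0.09) and Ndufv2 (−0.18 ± 0.28), none past the threshold with all arrays. Ndufs4 passed without 4 Gy replicate 1 (adjusted p = 0.0454).

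The slides, which are also the scan batches, bear on this comparison. Slide 1 held control replicates 1 to 4, slide 2 control replicate 5 with 4 Gy replicates 1 and 2, and slide 3 the other 4 Gy arrays. Within slide 2, where alone both sera met, all 36 members were higher with 4 Gy serum, by 0.02 to 0.33 (median 0.15, all genes 0.01), from 2 arrays against 1. The slide 2 control was lower than the slide 1 controls in 33 members (median −0.15), and the slide 3 arrays were lower than the slide 2 arrays in 23 members (median −0.08) within 4 Gy serum. With slide as a block 0 members were called, but hardly any gene was. Of 20230 genes the random block called 0 higher and 1 lower, and the fixed block 1 higher and 19 lower. In the 20-day set each slide held a single serum (8 Gy serum on slides 6 and 7, control serum on slides 4 and 5), so no slide gives a within-slide value. Slides of 1 serum differed there by a median of −0.16 (slide 7 minus 6, 8 Gy; −0.42 to 0.43 over the members) and −0.05 (slide 5 minus 4, control; −0.56 to 1.06). With slide as a random block 19 members were lower and 0 higher, where 18.7% of all genes were lower and 2121 of 20231 higher.

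**Figure D4:**
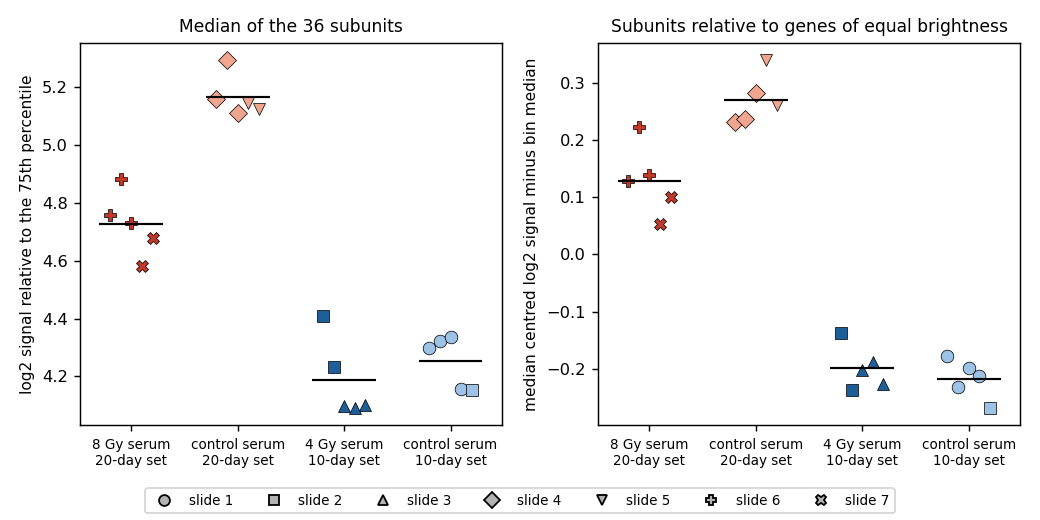
Median over the 36 subunits on each array: the signal (left) and the gene-centred signal minus the median of genes of equal brightness (right); symbols mark the slide and lines the group mean. On the left the 8 Gy arrays (4.58 to 4.88) lie below the 20-day controls (5.11 to 5.29) and above both 10-day groups, and the 4 Gy arrays (4.09 to 4.41) overlap the 10-day controls (4.15 to 4.34).

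The difference between both responses (8 Gy minus its control, less 4 Gy minus its control) was past the threshold in 17 members: 16 responded lower in the 20-day set and 1 higher (limma). Over all genes 22% differed in the lower and 12.2% in the higher direction. Ndufa6 had a response of −0.84 in the 20-day set and 0.15 in the 10-day set, a difference of −0.99 ± 0.10 (limma adjusted p = 2.05e-06). Ndufb5 differed by −0.97 ± 0.15, Ndufa12 by −0.82 ± 0.13, Ndufs8 by −0.78 ± 0.21 and Ndufa4 by −0.76 ± 0.15. With quantile or cyclic loess normalisation 8 members differed in the lower direction, as did 17.7% and 18% of all genes. Other members passed when single arrays were left out: Ndufa9 without 20-day control replicate 1, Ndufa13 without 20-day control replicate 1 or 3, Ndufb10 without 20-day control replicate 1 or 4, and Ndufa2 without 8 Gy replicate 1 or 2, 20-day control replicate 1, 4 Gy replicate 3 or 10-day control replicate 3. Ndufa9 and Ndufa13 also passed with slide 4 left out, and Ndufa2 with the replicate number as a block. Some markers of cell types differed too: 6 of 15 macrophage markers were lower and 0 higher (median −0.31). Of 5 endothelial markers 2 were lower and 0 higher (median −0.78), and of 6 epithelial markers 1 and 0 (median −0.21). Of 14 fibroblast markers 0 were lower and 2 higher (median −0.04). The part of these cell types in the complex I difference was not tested.

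Of the 4 comparisons, the one between the control sera had the largest median change of complex I. In the 20-day controls 33 of 36 members were higher than in the 10-day controls and 1 was lower (limma), against 36.9% and 29.4% of all genes. The median change was 0.86, a 1.81-fold higher signal, where all genes had 0.07 and the members' bins 0.47. In 30 members every 20-day control array lay above every 10-day control array (28.2% of all genes) and in 0 below (21.2%). Ndufb5 had 3.11 to 3.65 in 20-day controls and 1.29 to 1.40 in 10-day controls, a change of 1.97 ± 0.11 (3.91-fold). Ndufa6 had a change of 1.78 ± 0.07 (3.43-fold) and Ndufa4 of 1.51 ± 0.10 (2.84-fold). At least 2-fold higher were 15 members, a count for which no share of all genes was computed. Ndufb6 and Ndufv2 did not pass the threshold (changes 0.19 and 0.20), although each did without its 1 low control array (Ndufb6 replicate 3, Ndufv2 replicate 2 of the 20-day controls). The call of Ndufv3 (0.62 ± 0.25) was lost without any of 7: 20-day control replicates 2, 4 and 5 and 10-day control replicates 2 to 5 (adjusted p up to 0.119). Macrophage markers moved with this contrast, 15 of 15 higher with a median of 4.07; their part in the complex I difference was not tested. Within the 20-day set 4 of those 15 were lower with 8 Gy serum and 0 higher (median −0.05). Their changes were negative in 8 and positive in 7, and 28.8% of all genes were lower and 17.3% higher. No slide held both sets, and with slide as a random block 32 members were higher and 0 lower (30.6% and 23.9% of all genes).

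With 8 Gy serum the complex I signal lay above that of both 10-day groups. That comparison was not fitted, and set, slides and macrophage marker level change together in it. All 25 members that fell with 8 Gy serum had an 8 Gy mean above both 10-day means. For that count no share of all genes was computed. The 8 Gy mean was above the 4 Gy mean in 36 of 36 members (median difference 0.52), against 50.1% of all genes and 69.5% of those in the members' bins.

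**Figure D5:**
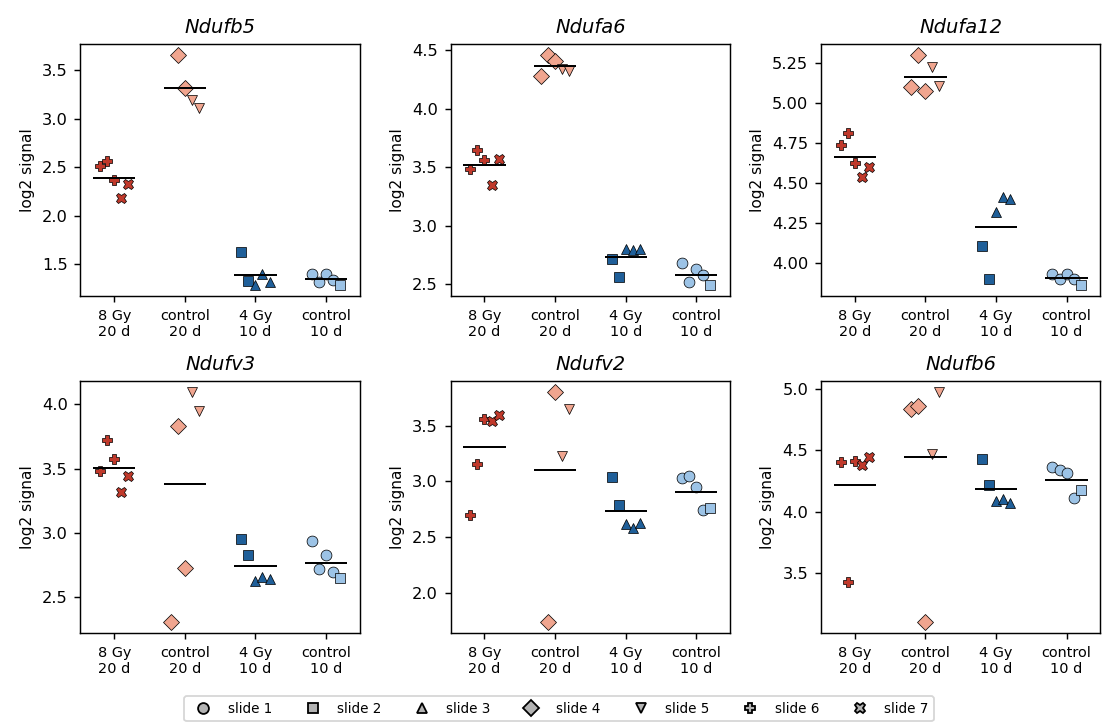
Signal of 6 subunits on each array by group, with the group mean as a line and the slide as symbol. Ndufb5 and Ndufa6 separate all arrays of the 20-day sera, Ndufa12 is raised on the slide 3 arrays of 4 Gy serum, and in Ndufv3, Ndufv2 and Ndufb6 low arrays, such as Ndufv2 at 1.74 in the 20-day controls, widen a group.

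Genes around complex I were set beside it. Of 15 measured assembly factors, which build the enzyme without staying in it, 11 fell with 8 Gy serum and 0 rose (median −0.38). Of all genes 28.8% were lower and 17.3% higher with 8 Gy serum. Ndufaf5, which modifies Ndufs7, changed by −0.93 ± 0.10, Tmem70 by −0.74 ± 0.09, Dmac1 by −0.66 ± 0.10 and Ndufaf3 by −0.65 ± 0.08. With 4 Gy serum 2 of the 15 rose, Timmdc1 (0.48 ± 0.12) and Ndufaf5 (0.43 ± 0.10), with limma adjusted p of 0.0231 and 0.0180. Of 44 tested subunits of complexes II to V 26 fell with 8 Gy serum and 0 rose (median −0.30), and 0 were called either way with 4 Gy serum. With 4 Gy serum 4.5% of all genes were higher and 1.47% lower. Shares at equal brightness were not computed for these lists. In the bins of the complex I members 48.9% of genes were lower with 8 Gy serum. Between control sera 14 assembly factors and 39 subunits of complexes II to V were higher in the 20-day set and 0 lower. Of all genes 36.9% were higher and 29.4% lower there, and 59.3% were higher in the bins of the complex I members.

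Of 9 tested transcription factors of nuclear respiratory genes 2 rose and 2 fell with 8 Gy serum. That is near the 17.3% and 28.8% of all genes. Ppargc1b, a coactivator of mitochondrial biogenesis, rose by 0.71 ± 0.09 and Nrf1 by 0.29 ± 0.09 with 8 Gy serum. Gabpa, a subunit of the GABP factor, fell by 0.58 ± 0.13, and Tfam, which packages and transcribes mitochondrial DNA, fell by 0.37 ± 0.12 (limma adjusted p of the 4 between 9.17e-06 and 0.0172). Yy1 had a change of −0.12 ± 0.20 that was not past the threshold, and 0 of the 9 were called with 4 Gy serum. The summed level of 5 endothelial markers was at most 0.509 and that of 6 epithelial markers at most 2.67 on any array, with 4 endothelial markers lower and 0 epithelial markers changed with 8 Gy serum (1 at an unadjusted p under 0.05, limma). Fibroblast markers summed to 1351 to 1486 with 8 Gy serum, 1326 to 1634 in 20-day controls, 1577 to 1754 with 4 Gy serum and 1684 to 1816 in 10-day controls.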

How the data were processed

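Gene expression was measured on 20 one-colour Agilent arrays, 5 in each of 4 groups taken from the sample titles. The deposited scanner files hold, per the file headers, processed intensities after background subtraction by Agilent Feature Extraction 10.5.1.1 (11.0 per the submitters' processing notes), with no scaling between arrays. The authors' deposited table of log2 values, used as an alternative, correlated with the recomputed values at 0.992 or more on every array; its columns had medians between −0.12 and 0.22, and its centring by set kept the sets apart. Deposited quality marks of another kind (0 or 1) record spots well above background or of uneven signal.

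Outlier spots (50 to 181 per array) were left out and spots of 1 probe averaged; 4 subunit values are missing for this reason, and the fit used the other arrays. The signal is the log2 processed intensity minus the array's 75th percentile. That percentile was 872 to 1015 intensity units with 8 Gy serum, 731 to 1021 in 20-day controls, 969 to 1204 with 4 Gy serum and 1217 to 1464 in 10-day controls. Accessions matched RefSeq GRCm38.p6 symbols for 24844 of 41174 probes. Probes well above background on all 5 arrays of a group were tested (26239), the brightest per gene, giving 20232 genes including unnamed probes. Comparisons used limma 3.58.1 in R 4.3.3 (lmFit and eBayes, two-sided, 1 mean per group) with Benjamini-Hochberg adjustment over all genes and a threshold of 0.05; errors are SE of that fit unless given as SD. The number of arrays limits the precision.

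The members, lists and motifs were chosen with earlier results of these data known. Values of 1 member are not reported here; it enters only counts and medians over the members and unlabelled plots. Named genes were core subunits, the 5 lowest and 5 highest changes of each serum comparison, members past the threshold in the 10-day set or in the difference of responses, Ndufa4 and Ndufab1; others are named to account for the counts. Replicates of the same number in the 20-day set had correlated deviations (0.14 to 0.41 in 5 pairs). The numbers were taken to pair these samples, which the correlations do not establish. For 8 Gy replicates 2, 3 and 4 a control of another number correlated more (replicate 4: 0.365 with control 5, 0.227 with control 4). For 8 Gy replicates 1 and 5 none did. Positive correlations lay within replicates 1 to 3 and within 4 and 5, which is also how the slides divide each serum. In the 10-day set same-number correlations were −0.06 to 0.18, and those numbers were not taken so. Alternatives were other scalings, background correction (normexp, on median signals), filters, probe averaging, slide and replicate blocks, single arrays left out and the authors' table. The replicate block within each set and the omission of slide 4 were added after seeing the data.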

Additional observations from a re-analysis of the deposited data

Results flagged for a closer look

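In 9 of 140 combinations of subunit and group a single array stood far from the other 4, by Dixon's criterion at 0.71 of the group's range; chance alone gives about 1 in 20. With 8 Gy serum these were Ndufa7 at 5.39 on replicate 2 (high), Ndufb6 at 3.43 on replicate 2 (low) and Ndufs3 at 3.31 on replicate 1 (low). In 20-day controls they were Ndufab1 at 5.05 (high) and Ndufb6 at 3.10 (low), both on replicate 3. With 4 Gy serum they were Ndufa13 at 6.06 (low) and Ndufb4 at 4.30 (low) on replicate 2 and Ndufc2 at 4.77 (high) on replicate 1. In 10-day controls it was Ndufb2 at 4.13 (low) on replicate 5, the control array that shared a slide with 4 Gy serum.

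The response to 8 Gy serum in the 20-day set differed from that to 4 Gy serum in the 10-day set in these 16 subunits (limma, adjusted p under 0.05). The differences were −0.99 for Ndufa6, −0.97 for Ndufb5, −0.82 for Ndufa12, −0.78 for Ndufs8, −0.76 for Ndufa4, −0.68 for Ndufa7, −0.62 for Ndufa8 and −0.57 for Ndufb8. They were −0.54 for Ndufs6, −0.50 for Ndufb7, −0.48 for Ndufc2, −0.47 for Ndufb3, −0.44 for Ndufa3, −0.44 for Ndufb4, −0.37 for Ndufb2 and −0.36 for Ndufa10. Those of Ndufa10 and Ndufb2 were each past the threshold no longer without any of 3 single arrays: 8 Gy replicates 4 and 5 and 20-day control replicate 4 for Ndufa10, and 8 Gy replicate 4, 20-day control replicate 3 and 10-day control replicate 5 for Ndufb2.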

How the results depend on the processing

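Dose, days, slides and, between sets, macrophage marker level change together here, and 5 arrays per group that may be technical replicates limit every comparison. Counts depended on the scaling. In the 20-day comparison 11 members were lower with quantile normalisation (median −0.121) and 12 with cyclic loess (median −0.108). Of all genes 24.7% and 23.8% were lower there. Scaling to the array median moved all genes (median −0.237, against −0.0945) and gave 29 members lower (median −0.519) with 40% of all genes lower; the slide as a random block gave 19. The number higher was 0 with array-median scaling, normexp, the random slide block, slide 4 left out, the 10 arrays of the set alone and the authors' table, and 2 with the mean of all probes. For the difference of responses 8 members were lower with quantile normalisation (median −0.174) and 8 with cyclic loess (median −0.155), and the number higher was 2 with cyclic loess and 0 with normexp or the random slide block. Between control sera the median was 0.986 with array-median scaling (all genes 0.196), 0.521 with quantile and 0.505 with cyclic loess normalisation, and 0 members were lower with array-median scaling, normexp, no filter, the random slide block or slide 4 left out. In the 10-day comparison 2 members were higher with quantile, cyclic loess or normexp, and 0 with array-median scaling, no filter, the mean of all probes, either slide block or either replicate block; the median was 0.145 with the slide as a fixed block and within slide 2. Of all genes 4.29% to 4.87% were higher there with quantile, cyclic loess or normexp. The random slide block also left 0 of all genes higher and 1 lower there, with limma.

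Changes called in at least 1 of the settings turned sign in the 20-day comparison: Ndufs1 to 0.030 (quantile) and 0.019 (cyclic loess), Ndufa13 to 0.055 and Ndufa1 to 0.009 (cyclic loess), Ndufb2 to 0.021 (normexp) and Ndufv3 to −0.513 without slide 4. In the difference of responses Ndufb2 came to 0.049 (normexp) and Ndufv3 to −0.488 (slide 4 left out). Between control sera Ndufb11 came to −0.020 (quantile) and −0.145 (cyclic loess), Ndufv1 to −0.082, −0.116 and −0.103 (quantile, cyclic loess, normexp) and Ndufs5 to −0.107 (cyclic loess). Changes called in neither setting turned sign as well, such as Ndufs5 (0.279) and Ndufb11 (0.177) with cyclic loess and Ndufv1 (0.221) with normexp in the 20-day comparison, and Ndufab1 (0.361) and Ndufs5 (0.313) with normexp in the difference. The causes were not tested. With single arrays left out, 21 to 27 members were lower and 0 to 1 higher in the 20-day comparison (median −0.41 to −0.346). Of all genes 26.3% to 29.8% were lower and 15.6% to 18.4% higher there. In the 10-day comparison 0 to 2 members were higher and 0 to 1 lower (−0.076 to −0.018). Of all genes 0.984% to 6.79% were higher and 0.0989% to 3.69% lower there. In the difference 14 to 20 members were lower and 1 higher (−0.409 to −0.318). Of all genes 19.5% to 24.4% were lower and 10.7% to 14.1% higher there. Between control sera 32 to 34 members were higher and 0 to 1 lower (0.829 to 0.908). Of all genes 35.2% to 37.6% were higher and 27.9% to 30.4% lower there. With the replicate number as a block 24 members were lower and 1 higher in the 20-day comparison, as were 29.3% and 17.6% of all genes. The block within each set gave 26 and 1 members, and 29.3% and 18% of all genes. In the difference the replicate block gave 17 lower and 1 higher (22.5% and 12.4% of all genes). Between control sera it gave 33 higher and 1 lower (37.2% and 29.8% of all genes). In the 10-day comparison either block ended the call of Ndufa12.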
